A study of Mus musculus with 4 samples.

Results

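The regions described here were open chromatin peaks of Sod2+/+ dermal fibroblasts that ranked high in the control and in the vehicle library and ranked low or were missing both in Sod2 knockout fibroblasts and after rotenone. They were chosen by rank, from 1 ATAC-seq peak list per library. A peak of the control counted as strong when it stood among the 30000 highest ranked, and 25780 of the 30000 strong control peaks overlapped a strong vehicle peak. Of these 25780 shared strong peaks, 560 overlapped none of the 60000 highest ranked peaks of the knockout and none of the 60000 highest ranked peaks of rotenone. "Lost" is used below as the name of this rank rule and does not mean that a region was closed. The 4 lists together held 1705856 peaks.

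All 4 libraries came from dermal fibroblasts of C57BL/6 mice, with 1 library per group and hence no replicate check. The groups were fibroblasts of a conditional Sod2 knockout (Sod2-/-), Sod2+/+ fibroblasts given rotenone, labelled as 250 µM, their Sod2+/+ controls without treatment, and Sod2+/+ fibroblasts given vehicle. The titles carry 100 days in every group without saying what the days count. The start of Sod2 itself was covered by a peak at rank 4797 in the knockout against 5579 in control, and at 4202 with rotenone against 5941 with vehicle, and since the deleted part of the gene is not given this does not check the knockout. The labels name neither the Cre that made the knockout conditional nor the number of animals behind a library. The knockout is set against the control and rotenone against vehicle, but both comparisons start from the same shared strong peaks. With no read counts in the lists, depth is unknown, and the intervals given are 95% Wilson intervals that cover counting error only.

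ATAC-seq marks open chromatin by letting the Tn5 transposase insert sequencing adapters into DNA that nucleosomes leave accessible. Open sites at gene starts are promoters, and open sites far from starts are often enhancers, which bind cell type factors and AP-1, the JUN and FOS dimers found at many distal sites of fibroblasts. Sod2 encodes the superoxide dismutase of the mitochondrial matrix, and rotenone blocks respiratory complex I, so both bear on mitochondrial superoxide. The title of the series names JunB activity in fibroblasts and skin aging.

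Of the 560 lost regions, 24 touched a promoter window, and position is set against kept regions further below. The sequences of 7 of those promoters are shown because they let a reader see what kind of DNA was involved. The windows run from 250 bases before to 50 bases after a start, from RefSeq's promoter table for GRCm38.p6 (mm10), and 29 windows of 26 genes were overlapped by 24 lost regions. The 7 were picked after their values were seen. Capitals mark the bases under the lost control peak. Armcx2 (an armadillo repeat gene of the X chromosome) has its window at chrX:134809172-134809471 on the minus strand. Nod1, a sensor of bacterial cell wall fragments, lies at chr6:54972563-54972862 on the minus strand. Myd88, the adaptor of Toll-like and interleukin 1 receptors, lies at chr9:119339969-119340268 on the minus strand. AA467197 lies at chr2:122637637-122637936 on the plus strand. Calcrl, a receptor for adrenomedullin and calcitonin gene-related peptide, lies at chr2:84425217-84425516 on the minus strand. S1pr2, a sphingosine 1-phosphate receptor, lies at chr9:20976744-20977043 on the minus strand. Kat2b, a histone acetyltransferase, lies at chr17:53566721-53567020 on the plus strand.
Armcx2: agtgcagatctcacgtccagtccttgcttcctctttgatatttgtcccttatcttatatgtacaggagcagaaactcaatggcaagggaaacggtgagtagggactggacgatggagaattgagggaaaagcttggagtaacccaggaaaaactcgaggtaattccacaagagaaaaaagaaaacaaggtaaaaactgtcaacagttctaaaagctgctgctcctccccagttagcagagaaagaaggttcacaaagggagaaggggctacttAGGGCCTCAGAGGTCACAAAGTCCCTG
Nod1: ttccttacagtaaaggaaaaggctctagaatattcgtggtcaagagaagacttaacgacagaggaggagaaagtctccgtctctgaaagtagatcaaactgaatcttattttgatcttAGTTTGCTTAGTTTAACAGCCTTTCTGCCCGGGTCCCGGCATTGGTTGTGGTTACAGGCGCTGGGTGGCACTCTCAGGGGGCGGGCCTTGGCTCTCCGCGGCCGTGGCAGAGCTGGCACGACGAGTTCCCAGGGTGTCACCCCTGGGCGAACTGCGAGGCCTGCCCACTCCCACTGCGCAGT
Myd88: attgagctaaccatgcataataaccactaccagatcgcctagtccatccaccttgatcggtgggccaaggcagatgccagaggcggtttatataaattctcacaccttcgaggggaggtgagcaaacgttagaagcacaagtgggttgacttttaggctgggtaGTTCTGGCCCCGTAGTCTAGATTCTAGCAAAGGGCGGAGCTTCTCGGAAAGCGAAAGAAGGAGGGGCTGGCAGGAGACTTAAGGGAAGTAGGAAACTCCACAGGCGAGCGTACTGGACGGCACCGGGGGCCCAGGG
AA467197: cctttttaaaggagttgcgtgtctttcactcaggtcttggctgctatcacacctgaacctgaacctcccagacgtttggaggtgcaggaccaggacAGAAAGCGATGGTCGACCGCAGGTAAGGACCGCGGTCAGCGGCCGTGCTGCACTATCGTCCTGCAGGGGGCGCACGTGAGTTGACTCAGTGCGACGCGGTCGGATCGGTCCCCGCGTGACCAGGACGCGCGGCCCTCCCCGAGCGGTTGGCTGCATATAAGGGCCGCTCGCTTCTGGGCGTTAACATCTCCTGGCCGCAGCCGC
Calcrl: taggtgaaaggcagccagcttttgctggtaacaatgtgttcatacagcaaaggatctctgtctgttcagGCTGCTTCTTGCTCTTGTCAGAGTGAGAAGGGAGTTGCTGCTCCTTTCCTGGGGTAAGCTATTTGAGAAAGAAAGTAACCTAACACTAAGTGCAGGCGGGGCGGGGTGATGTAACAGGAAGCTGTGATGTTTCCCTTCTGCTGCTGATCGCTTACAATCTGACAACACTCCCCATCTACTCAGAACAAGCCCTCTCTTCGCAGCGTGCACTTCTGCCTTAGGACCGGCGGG
S1pr2: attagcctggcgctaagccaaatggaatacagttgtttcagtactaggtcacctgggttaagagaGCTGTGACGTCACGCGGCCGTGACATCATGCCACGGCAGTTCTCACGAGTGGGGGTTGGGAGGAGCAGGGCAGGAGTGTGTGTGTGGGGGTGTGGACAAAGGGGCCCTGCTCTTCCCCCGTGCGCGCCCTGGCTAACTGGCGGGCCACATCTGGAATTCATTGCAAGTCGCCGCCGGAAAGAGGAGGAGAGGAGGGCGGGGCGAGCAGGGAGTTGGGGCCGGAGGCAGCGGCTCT
Kat2b: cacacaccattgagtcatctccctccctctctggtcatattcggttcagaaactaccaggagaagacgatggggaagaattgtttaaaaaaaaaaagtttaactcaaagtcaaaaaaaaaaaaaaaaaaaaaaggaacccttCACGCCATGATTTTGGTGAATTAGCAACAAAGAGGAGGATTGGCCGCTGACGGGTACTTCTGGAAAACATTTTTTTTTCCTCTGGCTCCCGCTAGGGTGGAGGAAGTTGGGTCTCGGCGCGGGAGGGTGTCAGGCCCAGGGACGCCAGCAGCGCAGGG

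At the Nod1 window the peak had a fold enrichment of 3.04 in the knockout against 6.56 in control, and of 3.02 with rotenone against 5.72 with vehicle. Fold enrichment is the authors' value per peak, a ratio of signal to local background, and describes a peak within its own list. At Myd88 the folds were 2.12 in the knockout against 3.96 in control, and 2.62 with rotenone against 3.74 with vehicle. Both innate immunity genes kept a weaker peak at the start. For Armcx2, where the peak covered 27 bases of the window, the folds were 2.25 in the knockout against 7.39 in control and 2.70 with rotenone against 8.0 with vehicle. The S1pr2 peak had 2.76 in the knockout against 4.71 in control and 3.11 with rotenone against 4.79 with vehicle.

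The windows overlapped by lost regions had a median GC content of 55.0%, against 61.7% in the 6957 windows overlapped by regions kept in both and 52.7% in all 32851 windows of the table. The median number of CpG dinucleotides was 13, against 22 in the windows of kept regions and 7 in all windows. The AP-1 site TGANTCA, searched on both strands over the whole window, was in 4 of 29 windows of lost regions (13.8%, 5.50% to 30.6%), against 5.09% of windows of kept regions and 7.81% of all windows. In the AA467197 and Gm40924 windows this site lay under the lost peak, and in the Kat2b and Wdr93 windows it lay outside the peak. The Sp1 box GGGCGG was in 17 of 29 windows (58.6%), against 68.0% for kept regions and 35.7% of all windows, and the ETS site CCGGAAG in 3 of 29 (10.3%), against 22.2% and 8.86%. The CRE TGACGTCA was in 2 of 29 (6.90%), among them the capitals of S1pr2, against 3.69% and 1.79%. The forkhead site TGTTTAC was in 0 of 29, which allows up to 11.7%, against 2.46% and 3.65%. Other sites were searched too, with shares above those in windows of kept regions for some and below for others. All counts describe 29 windows, several of which overlap one another, and say nothing about the lost regions that touched no window. Neither GC content nor peak width was held equal between windows of lost and of kept regions.

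Most lost regions were still called as weaker peaks after knockout or rotenone. Among the 560, 534 overlapped a knockout peak of any strength and 501 overlapped a rotenone peak. The knockout list held 585165 peaks and the rotenone list 347438, so these counts depend on list length and cannot be compared with each other. The best ranked overlapping peak had a median fold of 2.77 in the knockout (range 1.95 to 3.21), against 5.89 in control (1.80 to 9.27). With rotenone the median was 3.11 (2.05 to 3.57), against 6.25 with vehicle (1.45 to 11.4). Wherever a weaker peak was present its fold lay below that of its own control library, in 534 of 534 regions for the knockout and 501 of 501 for rotenone. These folds follow the ranks that chose the regions, so they describe the choice and support nothing further.

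**Figure D1:**
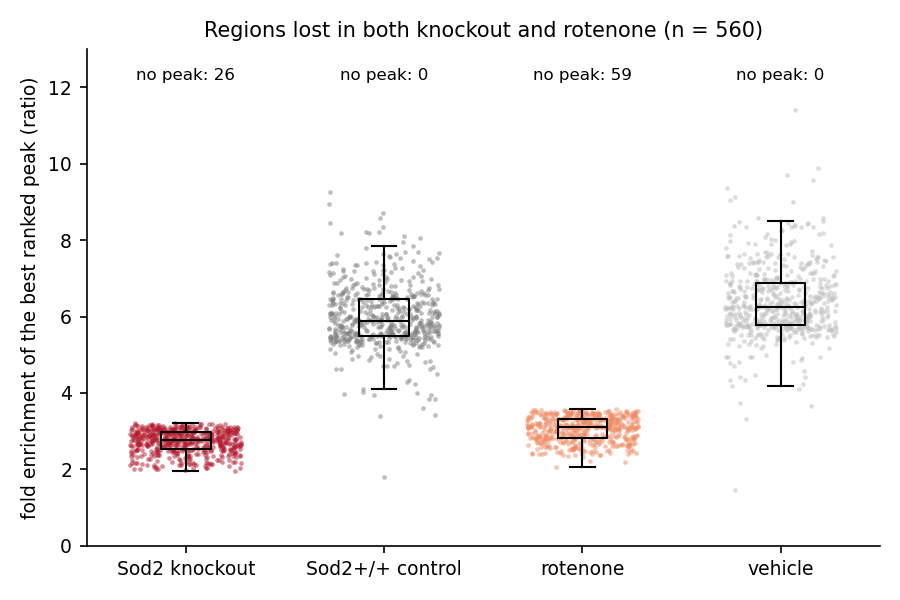
Fold enrichment (ratio, authors' value) of the best ranked peak overlapping each of the 560 lost regions in the Sod2 knockout, Sod2+/+ control, rotenone and vehicle libraries; points are regions, boxes show the quartiles and median, and whiskers reach the farthest value within 1.5 box heights. The knockout points end at 3.21 and the rotenone points at 3.57, and 26 and 59 regions had no peak there. The knockout list is longer than the rotenone list, so these numbers of regions cannot be compared.

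Many of the regions lay close to the rank limit. Of the 560, 329 were absent from the 75000 highest ranked peaks of both the knockout and rotenone. At 90000 peaks 230 remained absent from both lists, and at 120000 peaks 123. The members closest to the limit are named here, as elsewhere, for the gene that spans them or lies nearest. On the knockout side they were Klf6, a Krüppel-like factor 322686 bp away (rank 60010), Atxn1 (rank 60270) and Scara5, a ferritin receptor (rank 60287). On the rotenone side they were Amotl1, a partner of YAP (rank 60240), and Xbp1, a factor of the unfolded protein response (rank 60249). The closest regions that were not members were those of Sema6d (knockout rank 59947), Ssbp2 (knockout rank 59899), Sh3kbp1 (knockout rank 59834), Ins2 (rotenone rank 59919) and Shq1 (rotenone rank 59855). The Klf6 region had a fold of 3.18 in the knockout and the Sema6d region 3.22, so the regions on either side of the limit looked alike.

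Vehicle and control, which had neither knockout nor rotenone, also differed by this measure. Of the 30000 strong control peaks, 2027 (6.76%) were outside the 60000 highest ranked knockout peaks and 2201 (7.34%) outside the same number of rotenone peaks, against 254 (0.847%) outside that of vehicle peaks. The shared strong peaks were strong in vehicle by their choice, so none of them could be lost there. In the knockout 1104 of 25780 shared strong peaks were lost (4.28%) and with rotenone 1168 (4.53%). The 560 lost in both (2.17%, 2.00% to 2.36%) were 50.7% of the knockout losses and 47.9% of the rotenone losses. These shares are set by the rule and by the common starting peaks and are no result in themselves. The opposite rule, strong peaks of both knockout and rotenone that were outside the top 60000 of control and vehicle, found 346 of 24748 (1.40%).

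The lost regions came from the weaker end of the control list. Their control ranks had a median of 23129, and 21 of the 560 ranked under 15000 in both control and vehicle. Of the 4988 shared strong peaks at control ranks 1 to 5000, 0 were lost in both, which allows a share of up to 0.0770%. The share was 0.873% at ranks 10001 to 15000, 2.76% at 15001 to 20000, 5.01% at 20001 to 25000 and 7.61% (6.66% to 8.69%) at 25001 to 30000. In this last bin 14.4% were lost in the knockout, whether or not also lost with rotenone, and 14.4% were lost with rotenone.

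**Figure D2:**
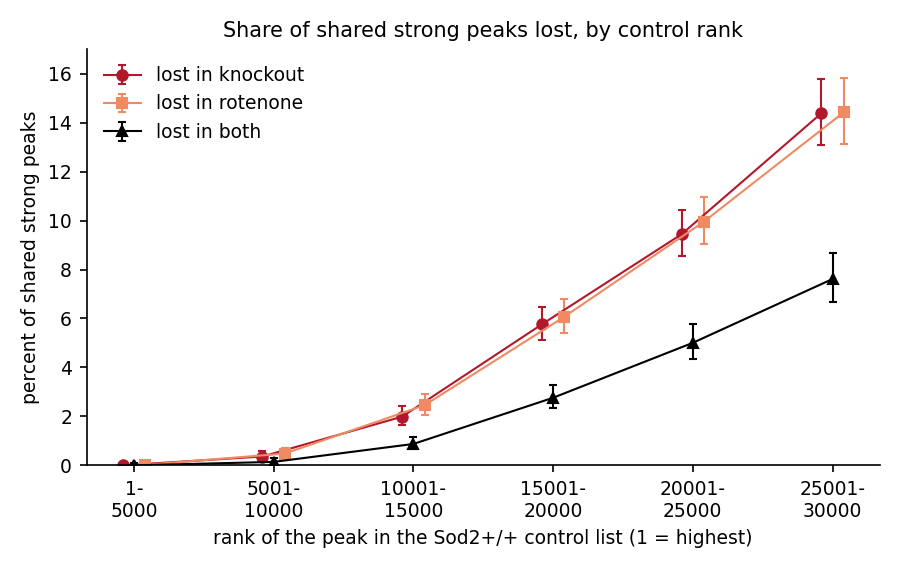
Percent of the shared strong peaks lost in the knockout, with rotenone and in both (y axis) by rank in the Sod2+/+ control list in bins of 5000 (x axis, 1 is the highest rank); bars are 95% Wilson intervals for counting error. All 3 curves stay near 0 up to rank 10000, and at ranks 25001 to 30000 they reach 14.4% in the knockout, 14.4% with rotenone and 7.61% in both.

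The knockout and rotenone libraries were also less enriched as a whole, which moves in the same direction as the losses. Among the 30000 highest ranked peaks the median fold was 5.49 in the knockout against 6.78 in control, and 5.99 with rotenone against 7.13 with vehicle. The median width was 293 bp in the knockout against 376 bp in control, and 277 bp with rotenone against 349 bp with vehicle. Even among the 19675 shared strong peaks that stayed within the 30000 highest ranked of both lists (kept in both), the fold was lower in the knockout than in control for 80.1% and lower with rotenone than with vehicle for 76.6%. The part of this library-wide difference in the losses was not tested.

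The highest ranked lost regions lay in or nearest to genes of varied kinds, some far outside the gene named. Within Arhgap27, a GTPase activating protein, a region of 466 bp had a fold of 2.64 in the knockout against 8.71 in control and 3.20 with rotenone against 7.06 with vehicle. Unc5b, a netrin receptor, held a region of 600 bp with 2.97 in the knockout against 7.42 in control and 3.06 with rotenone against 7.60 with vehicle. In each of these regions the knockout and rotenone folds both lay below the control and vehicle folds. These lower folds follow from the rank rule that chose the regions. Akap13, an anchor of protein kinase A, had a region with 3.16 in the knockout against 8.46 in control and 3.25 with rotenone against 7.63 with vehicle. Tcf12, an E-box binding factor, had one with 2.63 in the knockout against 8.21 in control and 3.17 with rotenone against 8.47 with vehicle. The region nearest to Ndfip2, an adaptor of NEDD4 ubiquitin ligases, lay 174111 bp beyond the gene and had 2.66 in the knockout against 8.59 in control and 3.52 with rotenone against 9.59 with vehicle.

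Other regions were also among the 15 highest ranked, and their lower folds again follow from the rule. The regions nearest to Ing1 (a chromatin reader) and Vav3 (a guanine nucleotide exchange factor) lay 12438 and 60997 bp outside these genes. They had knockout folds of 3.03 and 3.21, against control folds of 8.34 and 8.21. Their rotenone folds were 2.94 and 2.82, against vehicle folds of 8.45 and 6.72. A pair of nuclear genes of the respiratory chain were among the 15 highest ranked. Sdhaf2, an assembly factor of complex II, held a region of 155 bp inside the gene with 2.55 in the knockout against 7.95 in control and 3.03 with rotenone against 5.67 with vehicle. Ndufa8, a subunit of complex I, had one 26704 bp outside the gene with 2.53 in the knockout against 8.06 in control and 2.64 with rotenone against 6.27 with vehicle. The starts of both genes were covered by a peak among the 30000 highest ranked of every library.

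In 13 regions neither the knockout nor the rotenone list held a peak of any strength. The best ranked of the 560 belongs here and stands apart: a region of 61 bp, 607617 bp from Cdh11, had a fold of only 1.80 in control and 1.45 with vehicle at a −log10 p of 68.6 in control. A high significance at such a low fold sets it apart from the others, and 10 of the 560 had a control fold below 4. For Resf1, a repressor of endogenous retroviruses, the region lay 28010 bp outside the gene and was 58 bp wide. It had a fold of 8.94 in control and 7.95 with vehicle. The region nearest to Klf10, a TGF-beta inducible factor, lay 45383 bp outside the gene. It was 164 bp wide, with 7.14 in control and 9.89 with vehicle. Crybg1 held one of 358 bp with 7.01 in control and 6.50 with vehicle. Coa5, an assembly factor of cytochrome oxidase, held one inside the gene with 7.15 in control and 8.38 with vehicle. At Dpysl3, Med13l, Entpd3 and Endod1 the control folds ran from 5.86 to 6.06. Of the regions named here, the narrowest control peak was 55 bp wide, at Entpd3, and the widest 358 bp, at Crybg1.

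The lost regions were narrow, and by the main rule few of them lay at genes' ends. Their median control width was 213 bp, against 440 bp for kept regions and 402 bp for all shared strong peaks. Regions lost only in the knockout had a median of 209 bp and those lost only with rotenone 239 bp. An overlap of 1 bp is easier to meet for a wide peak, so the rule itself favours narrow regions. Of the 560, 156 were narrower than 150 bp. Within 1000 bp of either end of a protein-coding gene lay 47 of 560 (8.39%, 6.37% to 11%), against 31.0% of kept regions and 27.2% of all shared strong peaks. When an overlap had to cover 50% of the control peak, 1726 regions were lost and 24.3% of them lay at a gene end, which is close to the share of all shared strong peaks. By the main rule, regions lost only in the knockout (544) had 12.3% there and those lost only with rotenone (608) 9.87%. Inside a gene lay 54.8% of the lost regions, against 54.5% of kept regions. On start sites, 6.18% of 534 lost regions were within 1000 bp of one, against 28.5% of kept regions. Over 10000 and up to 100000 bp away were 51.3%, against 37.6%. Both shares were similar for regions lost only in the knockout (7.05% and 50.3%) or only with rotenone (7.89% and 48.5%). The median distance to the nearest start was 37497 bp for lost regions and 23025 bp for kept regions. The 26 lost regions on chromosome 18 have no start site distance here.

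The difference in position was not seen once rank and width were held. At control ranks over 20000 the share at gene ends was still 8.85% of 384 lost regions, against 26.0% of kept regions, while the median widths were 211 bp and 363.5 bp. When width was also held at 150 to 300 bp, 18 of 151 lost regions lay at a gene end (11.9%, 7.67% to 18.1%), against 111 of 903 kept regions (12.3%, 10.3% to 14.6%). Distances to start sites came closer as well, with medians of 39030 bp for lost and 35208 bp for kept regions. Within 1000 bp of a start lay 8.16% of lost regions (4.73% to 13.7%) and 11.6% of kept regions (9.61% to 13.9%). The joint limit on rank and width was chosen after seeing the data. At matched rank and width, a difference at gene ends between lost and kept regions was not detectable at these numbers.

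**Figure D3:**
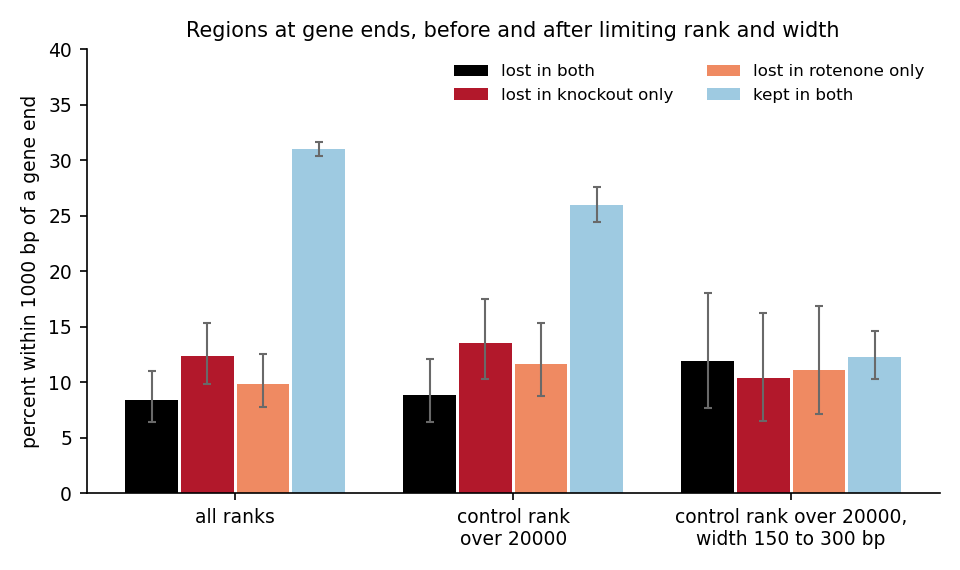
Percent of regions within 1000 bp of a protein-coding gene's end (y axis) for regions lost in both, lost in the knockout only, lost with rotenone only and kept in both, over all control ranks, at ranks over 20000, and at those ranks with a width of 150 to 300 bp; bars carry 95% Wilson intervals. The kept regions come down to 12.3% in the last group, beside 11.9% for the regions lost in both.

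Where the start of a gene near a lost region was covered in control and vehicle, it mostly stayed covered. Of 381 genes with a lost region away from a start and with a start in the table, 178 had a start covered by one of the 30000 highest ranked peaks in the knockout (46.7%) against 190 in control (49.9%), and 181 with rotenone (47.5%) against 193 with vehicle (50.7%). Of the 179 starts covered in control and vehicle, 174 (97.2%, 93.6% to 98.8%) stayed within the top 60000 of both knockout and rotenone. Among genes with a shared strong peak and no lost region that share was 98.3% of 5174, so the intervals overlapped. Celf2, an RNA binding splicing regulator with 2 lost regions, was among the few exceptions. Its start was covered at rank 19470 in control and 22595 with vehicle, and by no peak among the 60000 highest ranked after knockout or rotenone. A strong start peak lost in both would itself count as a lost region. The choice of genes therefore sets the shares of 97.2% and 98.3% in part, and they are no independent result.

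Most genes with a lost region also had a region kept in both, but kept regions were common, with 19675 of the 25780 shared strong peaks. The counts below were not made for other regions, so they do not set the lost regions apart. Lost regions were assigned to 530 genes, by the gene that spans the region's middle or else the nearest gene end. Of these genes, 433 also had a shared strong peak kept in both. For 68 genes every shared strong peak was lost. The nearest gene can be far away, as 87 regions lay over 50000 bp and 52 over 100000 bp outside the gene they are named for. A kept region stood within 50000 bp of 421 of the 560 and within 5000 bp of 115. In 54 of the 560, a separate knockout or rotenone peak of the top 60000 lay within 500 bp without overlapping.

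In 29 genes 2 or more regions were lost, and genes with many peaks lead such a count by size. Nr3c1, the glucocorticoid receptor gene, lost 2 of 4 shared strong regions, both outside the gene, at 62530 and 104857 bp. Their folds were 2.68 and 2.99 in the knockout against 5.74 and 6.14 in control, and 3.08 and 2.90 with rotenone against 7.55 and 6.88 with vehicle. Tcf7, a nuclear effector of WNT signalling, lost 2 of 3, both inside the gene. Rftn1, a lipid raft protein, lost 2 of 2. Further genes with 2 lost regions were Daam2 (WNT and actin regulation, 2 of 9), Diaph3 (an actin nucleating formin, 2 of 8), Srgap1 (a regulator in Slit-Robo signalling, 2 of 6), Creb3l2 (a membrane bound factor of the secretory pathway, 2 of 15), Uck2 (a uridine-cytidine kinase, 2 of 11) and Tenm3 (a teneurin, 2 of 12). For Myc, the proliferation factor, the 2 lost regions of 13 lay 367 bp apart and 58561 bp from the gene. The 2 at Sox2 were 230 bp apart and 117114 bp from that gene, so each of these pairs may be a single element called as separate peaks.

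Dmbt1 was the one gene with 3 lost regions, and these were all of its shared strong peaks. They lay between chr7:131059915 and chr7:131076207, spaced by 7659 and 8249 bp. Their folds were 2.67, 2.94 and 2.71 in the knockout against 5.82, 5.72 and 6.39 in control, and 3.42, 3.43 and 3.36 with rotenone against 7.41, 7.39 and 8.14 with vehicle. The first 2 had the same control width of 139 bp and the same vehicle width of 123 bp. Dmbt1 encodes a protein of repeated scavenger receptor domains, and peaks of the same size at even spacing in a repeated gene cannot be counted as independent here, since reads from near-identical copies may have been divided among them. The 2 lost regions at Tceal3 and the 2 at Prss2 also stand in families of close copies and carry the same uncertainty.

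Stretches with several lost regions were rare. Another lost region lay within 50000 bp of 37 of the 560 (6.61%, 4.83% to 8.97%), against 5.12% of all shared strong peaks (4.86% to 5.40%). Of the 1320 shared strong peaks with a lost neighbour, 2.80% were lost (2.04% to 3.84%), against 2.14% of those without one (interval up to 2.33%). At control ranks over 10000 the shares were 4.79% (3.49% to 6.53%) and 3.43% (3.15% to 3.74%). At ranks over 20000, 27 of 282 with a lost neighbour were lost (9.57%, 6.66% to 13.6%), against 5.92% of those without one (5.35% to 6.55%). The intervals overlapped over all ranks and at ranks over 10000, and lay apart by little at ranks over 20000. The 27 there include the 3 regions at Dmbt1, which cannot be counted as independent, so no clustering can be read from this gap. Within 500000 bp, 10 stretches held 3 or more. One of the 2 stretches with 4 lay on chromosome 9, where 4 of 12 shared strong regions were lost across 457393 bp from Cx3cr1, the fractalkine receptor, past Myrip and Eif1b to Entpd3, an ectonucleotidase, and the other 8 were kept in both. The Myrip region lost there had 2.11 in the knockout against 7.59 in control and 2.50 with rotenone against 8.03 with vehicle. Its kept neighbour, within 1 kb, had 7.65 in the knockout against 10.2 in control and 7.05 with rotenone against 8.95 with vehicle. On chromosome 19, the desaturase genes Fads2 and Fads1 and Sdhaf2 held 3 lost regions among 11, all inside these genes. On chromosome 15, 3 of 6 were lost, one inside Gtse1, one 24441 bp outside Ppara and one 71628 bp outside Wnt7b.

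**Figure D4:**
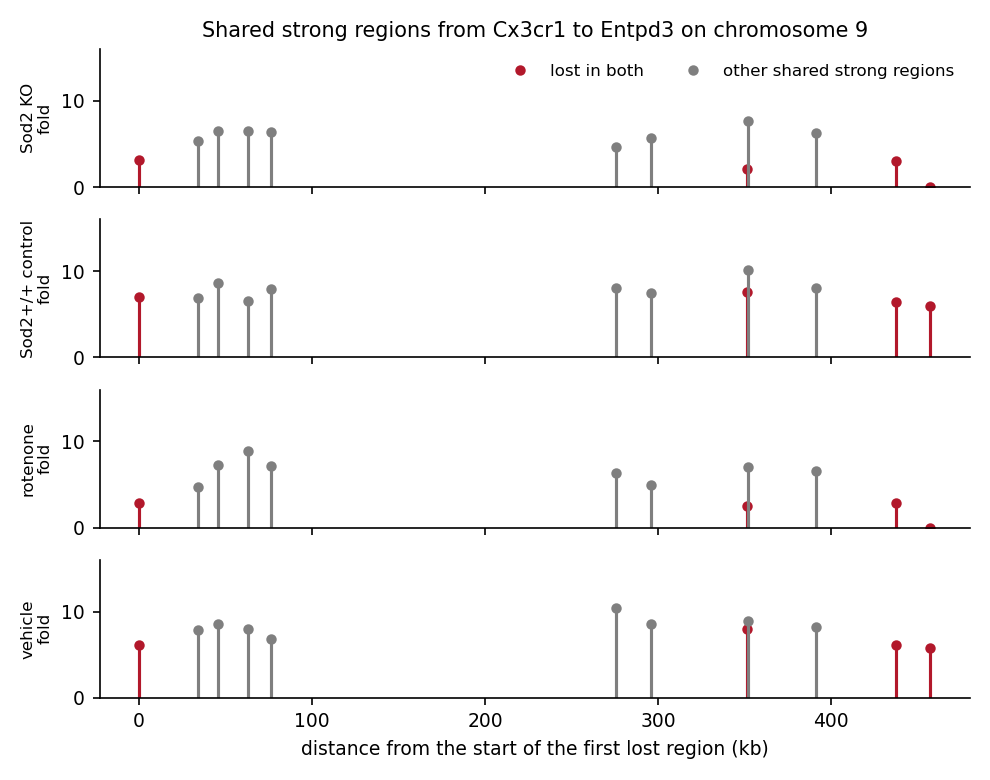
Fold enrichment (y axis, ratio, authors' value) of the best ranked peak at each of the 12 shared strong regions from Cx3cr1 to Entpd3, by distance in kb from the first lost region, in the Sod2 knockout, Sod2+/+ control, rotenone and vehicle libraries; a point at 0 means no peak. The 4 lost regions stand at 3.20 or below in the knockout and at 2.86 or below with rotenone, while the 8 others stay at 4.65 or above in both.

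By function, no list of genes held more than 5 lost regions, and the lists were read against the 2.17% of all shared strong peaks. The list of EGF receptor family and LRIG genes had 5 of 72 (6.94%, 3.00% to 15.2%), the largest number. Egfr, the receptor, held a region inside the gene with 3.06 in the knockout against 6.6 in control and 3.22 with rotenone against 6.98 with vehicle. Lrig1, a brake on EGF receptors and a marker of some fibroblast and stem cell pools, had 2 lost of 13. Their folds were 2.67 and 2.90 in the knockout against 5.46 and 5.48 in control. With rotenone they were 3.32 and 2.70, against 6.21 and 6.49 with vehicle. The region with a control fold of 5.46 lay 106580 bp outside the gene, and the 2 regions were 166218 bp apart. The start of Lrig1 was covered at rank 1792 in the knockout against 2606 in control, and at 594 with rotenone against 779 with vehicle. Lrig3 lost 2 of 22, 1 inside the gene and 1 that lay 296643 bp outside it. The region inside had no rotenone peak and a knockout fold of 2.03, against 6.43 in control and 6.02 with vehicle.

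Genes of protein stress had the largest share on the smallest list but one. The stress response list had 3 of 20 (15%, 5.24% to 36.0%), at Asns, the asparagine synthetase that ATF4 induces, Eif2ak3, the PERK kinase, and Xbp1. The Asns region had 2.87 in the knockout against 6.21 in control and 3.51 with rotenone against 6.27 with vehicle. At Eif2ak3 the folds were 2.20 in the knockout against 5.44 in control and 2.85 with rotenone against 5.56 with vehicle. Xbp1 had 2.98 in the knockout against 5.74 in control and 3.56 with rotenone against 5.64 with vehicle, and its rotenone peak ranked 60249, close to the limit of 60000. The rotenone peak of Asns ranked 63296, so neither would be a member with a limit of 75000.

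AP-1 subunit genes had 3 of 43 (6.98%, 2.40% to 18.6%). The Jun region, 46085 bp outside the gene, had 2.80 in the knockout against 6.28 in control and 3.02 with rotenone against 7.42 with vehicle. The region nearest to Jdp2, a repressor that dimerizes with JUN, lay 26188 bp outside the gene. It had 2.81 in the knockout against 5.84 in control and 2.96 with rotenone against 6.10 with vehicle. The third was 236266 bp from Maf, a large MAF factor. No region of Junb was among the 560. Its start was covered at rank 16278 in the knockout against 19161 in control, and at 18068 with rotenone against 23412 with vehicle.

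Signals that shape the dermal matrix had shares near or somewhat above that of all peaks, each on few regions. TGF-beta and SMAD genes had 4 of 82 (4.88%, 1.91% to 11.9%). Tgfbr2, the type II receptor, held a region with 2.71 in the knockout against 6.88 in control and 3.11 with rotenone against 8.57 with vehicle, and Smad3, its transcription factor, one with 2.94 in the knockout against 4.97 in control and 3.44 with rotenone against 5.42 with vehicle. The other 2 were 26965 bp outside Tgfbr3, the coreceptor betaglycan, and inside Ltbp1, which stores latent TGF-beta in the matrix. Collagen and matrix genes had 4 of 113 (3.54%), at Col15a1, Col4a1, Col1a2 and Fbn2. The Col15a1 region, 30253 bp outside the gene, had 2.85 in the knockout against 6.64 in control and 3.17 with rotenone against 8.35 with vehicle. Fibroblast identity genes had 4 of 87 (4.60%), namely the 2 at Lrig1, one of 39 bp at 118452 bp from Col1a2, and one near Tbx18. YAP and TEAD genes had 3 of 60 (5%), at Amotl1, at Vgll4 and 58988 bp outside Ankrd1, a YAP target. WNT genes had 2 of 48, both at Tcf7.

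The antioxidant genes had 2 of 48 (4.17%, 1.15% to 14.0%). Nfe2l2 encodes NRF2, the factor that turns antioxidant genes on, and its region, 17649 bp outside the gene, had a fold of 2.40 in the knockout against 6.07 in control, and no rotenone peak against 6.05 with vehicle. Txnrd1, a thioredoxin reductase, had 2.61 in the knockout against 5.89 in control and 2.91 with rotenone against 5.47 with vehicle. Secreted factors of senescent cells had 2 of 48, at Mmp2, a gelatinase, and 151384 bp outside Cxcl12, a chemokine. Senescence and cell cycle inhibitors had 1 of 38, 8234 bp outside Ccng1, a p53 target. Proliferation genes had the 2 of 52 at Myc, Notch genes 2 of 66 at Maml3 and Heyl, the IGF axis 1 of 55 at Igf1r, myofibroblast genes 1 of 59 at Palld, and focal adhesion genes 1 of 71 at Itga5. The counts were 0 of 37 for FGF and PDGF genes, 0 of 45 for hypoxia and glycolysis genes and 0 of 19 for housekeeping genes, which allow shares of up to 9.41%, 7.87% and 16.8% (upper Wilson bounds).

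**Figure D5:**
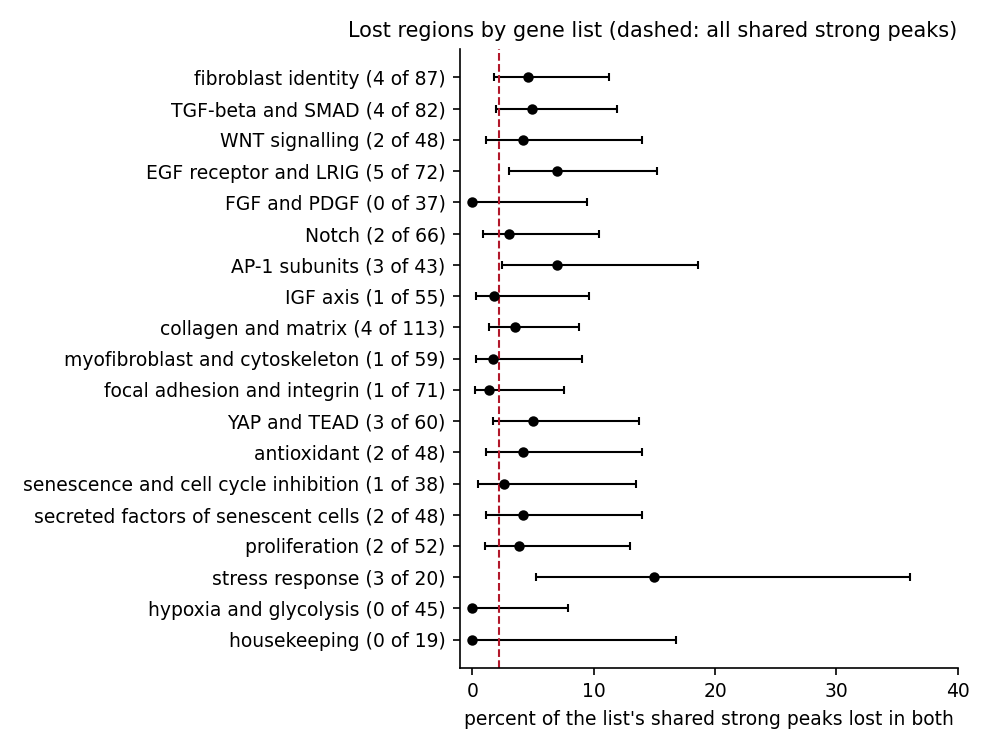
Percent of each list's shared strong peaks that were lost in both knockout and rotenone (x axis), with 95% Wilson intervals, for the 19 gene lists (y axis, lost of all in brackets); the dashed line is the 2.17% of all shared strong peaks. All intervals are wide, and those of 3 lists (stress response, EGF receptor and LRIG, AP-1 subunits) begin above the line.

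Since 19 lists were looked at and were written with earlier results known, an interval that begins above 2.17% does not make a list particular. Of 10 dermal fibroblast markers, 7 had a shared strong peak (Col1a1, Lum and Twist2 had none), and 1 of their 24 peaks was lost, at Col1a2. Markers of other skin cells had shared strong peaks at 4 of 7 keratinocyte, 4 of 5 endothelial, 1 of 5 myeloid, 0 of 4 lymphocyte, 2 of 5 melanocyte and Schwann cell, 0 of 4 adipocyte, 1 of 4 muscle and 3 of 3 pericyte genes. Among these the only lost region was in Ptprc, the leukocyte antigen CD45, with 3.19 in the knockout against 5.58 in control and 3.07 with rotenone against 6.06 with vehicle. Of the markers with a start in the table, the start was covered by one of the 30000 highest ranked peaks for 2 of 6 dermal fibroblast, 0 of 4 keratinocyte, 1 of 3 endothelial, 0 of 3 myeloid, 0 of 2 lymphocyte, 1 of 2 melanocyte and Schwann cell, 0 of 3 adipocyte, 0 of 3 muscle and 0 of 2 pericyte genes, with the same counts in each of the 4 libraries. Whether a change in cell makeup has a part in the losses was not tested, and open chromatin in fewer cells and weaker opening per cell cannot be told apart in bulk libraries.

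By chromosome the share lost in both ran between 1.52% on chromosome 15 and 3.13% on chromosome 6 (46 of 1470, 2.35% to 4.15%), leaving out the 19 peaks of chromosome Y, of which 0 were lost. On chromosome X 9 of 522 were lost (1.72%, 0.910% to 3.24%). No chromosome held a large part of the 560.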

How the data were processed

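ATAC-seq libraries of mouse dermal fibroblasts were analysed, 1 per group. Build mm10, Bowtie2, bedtools, MACS2 and HOMER stand in the submitters' processing notes. The sources used here do not give their versions, settings, read filters or a shift for Tn5 insertion. The authors deposited 1 peak list per library, called separately. Columns without a header were read in MACS2's order. The deposited score was not used. Fold enrichment is a ratio over local background, and the −log10 p and −log10 q are also the authors' values.

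Each list was ranked by −log10 p, with ties by fold. Peaks overlapped at 1 bp or more, and in each library the best ranked overlapping peak of any strength gave a region its values. The knockout was set against control and rotenone against vehicle, without tests, as there was 1 library per group. Genes came from the RefSeq table of GRCm38.p6 (21900 protein-coding genes), without exons, and starts from its promoter table. The planned GC content and motif search over the regions were not run, as no genome sequence was used here. Names follow a rule: the 15 highest ranked regions, 5 at gene ends, 10 without other peaks, the 12 genes with most regions and up to 3 genes per list (some are not reported here), and further genes named were picked after their values were seen. The members and the gene lists were chosen with earlier results of these data known. The overlap code was tested on simulated lists. The tools were pandas 2.3.3 and numpy 2.4.6 under Python 3.11.15, and matplotlib 3.10.9 for the plots.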

Additional observations from a re-analysis of the deposited data

How the results depend on the processing

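The number lost depends on the limits. Against 560 regions (2.17% of shared strong peaks), lists of 15000 and 30000 peaks gave 236 (1.82%), of which 21 overlapped one of the 560, and lists of 60000 and 120000 gave 2524 (5.04%), of which 123 did. With the top 90000 of knockout and rotenone 230 were lost (0.892%), and with no peak of any strength there 13 (0.0504%). Asking that an overlap cover 50% of the control peak gave 1726 (6.81%), and the cause was not tested. Control peaks of 150 bp or more gave 404 (1.67%) and ranking by fold 656 (2.58%), of which 491 overlapped one of the 560. The share at gene ends, 8.39%, became 24.3% with 50% coverage, 11.9% with lists of 15000 and 30000, 0% of the 13 without any peak, 15.5% with a window of 2500 bp, and 11.9% at matched rank and width, an alternative chosen after seeing the data. The number lost stayed within 1.5 times under the other 5 alternatives (404 to 656), and starting from vehicle peaks gave 563, of which 555 overlapped one of the 560. The share inside a gene moved between 52.9% and 57.9% under all 10 alternatives. Genes with 2 or more lost regions numbered 29, and 20 when regions over 50000 bp from a gene were left out. The planned AP-1 motif share and GC content of the lost regions were not run. No paired analysis was possible because each group has 1 library and the labels carry no replicate numbers. For the same reason no library could be left out. Depth is unknown, so a weak peak and a shallow library cannot be told apart.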
